A study of Mus musculus with 6 samples.

Results

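The claudins are the transmembrane proteins that form the strands of tight junctions, the seals between neighbouring epithelial or endothelial cells. The members followed here in mouse stomach antrum were Cldn1, Cldn2, Cldn3, Cldn4, Cldn5, Cldn7, Cldn10, Cldn12, Cldn15 and Cldn18. Members were found by their gene symbol in the annotation of the array platform. Of the 10 genes named, 9 had a probe set, out of 12393 genes with a single-gene probe set on the array. The 9 genes were read by 17 probe sets. Cldn12 was not analysed here.

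The arrays were hybridised with antral RNA from 3 strains. C57/BL6 mice (BL6) and Beige mice were both titled as controls, and Satin mice were set against them in a study of gastric lineages and the forkhead factor FOXQ1. As background, Satin mice carry a mutation of Foxq1 and Beige mice one of Lyst, the former known for a silky sheen of the coat and the latter for a change of coat colour. There were 2 arrays per strain, and the design speaks of 2 mice of each. The sources used here do not give the alleles, genetic backgrounds, ages or sexes of the mice, or any treatment.

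Claudins interact within a membrane and across the gap between cells, and the mix of claudins in a cell layer sets how tight the layer is and which ions pass between the cells. Sealing claudins such as CLDN1, CLDN3, CLDN4 and CLDN5 close the gap, while CLDN2, CLDN10 and CLDN15 form ion-selective channels within it. CLDN18 has a stomach isoform and is known as the characteristic claudin of gastric mucosa, where it helps to hold luminal acid.

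Among the claudins, Cldn3 stood apart in Satin antrum. It rose by 4.07 ± 0.48 (SE) on the log2(signal + 32) scale against the mean of the control strains, and the adjusted p was 0.00417 with limma. It was the 1 claudin of 9 past the threshold of 0.05, which 1.44% of all genes tested passed, and no other claudin passed in any of the 4 comparisons between strains. Cldn4 and Cldn18 were higher on both Satin arrays than on all 4 control arrays, but missed the threshold. None of the 9 genes was lower on both Satin arrays than on all control arrays.

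Across the whole array, 135 of 9395 genes tested passed the threshold in Satin against the mean of BL6 and Beige (1.44%), of which 41 were higher (0.436%) and 94 lower (1%). This split turned with the scaling of the arrays, to 46 higher and 46 lower with median centring and 1469 higher and 62 lower on the deposited scale. Median deposited signals were 38.2 to 49.5 on the control arrays and 58.6 and 74.15 for Satin. The signals are printed as deposited, while differences and tests come from values made comparable between arrays by quantile normalisation. The ratio of 5′ to 3′ Gapdh signal, a sign of RNA or cDNA completeness, was 0.526 on BL6 array 1 and 0.988 to 1.18 on the other 5 arrays. Foxq1 RNA differed by 0.55 ± 0.16 (SE, adjusted p = 0.166 in limma) in Satin against the controls. Lyst RNA differed by -0.68 ± 0.30 (SE, adjusted p = 0.401) in that comparison. In Beige against BL6 it differed by -0.14 ± 0.35 (SE, adjusted p = 0.962). Neither strain label was thus checked by the level of its mutated gene. The p-values measure only the spread between arrays of a strain, which may be technical, and 2 arrays per strain limit the precision.

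**Figure D1:**
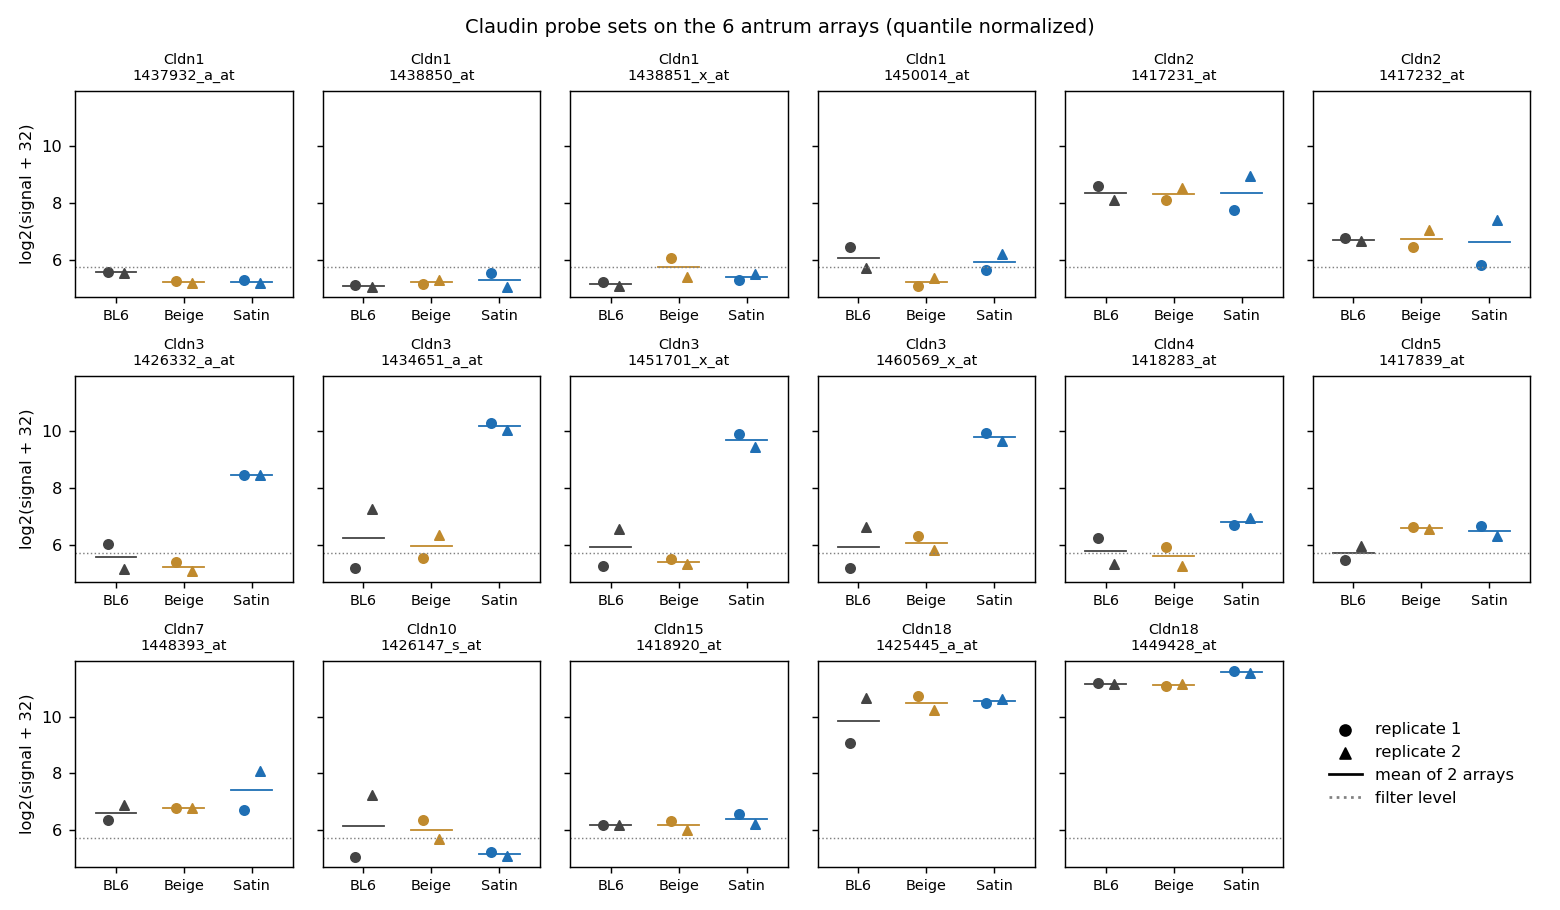
Normalized log2(signal + 32) of the 17 claudin probe sets, 1 panel each, on the 6 arrays by strain, with 1 point per array and a bar at the mean of the 2 arrays. The dotted line is the level below which genes were left out of the tests (5.74). The Satin points of Cldn3 probe set 1434651_a_at lie at 10.06 and 10.29, against 5.20 to 7.28 on the control arrays.

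CLDN3 is a sealing claudin of many glandular epithelia, including those of the intestine. Its gene was read by 4 probe sets. The probe set with the highest mean, 1434651_a_at, gave signals of 1546 and 1258 on the Satin arrays, against 4.3 and 96.0 for BL6 and 13.0 and 47.5 for Beige. Both Satin arrays were far above every control array, and the control values were scattered at the low end of the scale. On the normalized log2 scale the Satin level was 10.17 ± 0.16 (SD, n = 2), that of BL6 6.24 ± 1.47 and that of Beige 5.96 ± 0.59. Satin was thus the highest strain, and the values of BL6 and Beige overlapped. In bulk RNA of this kind, more cells with Cldn3 RNA and more Cldn3 RNA per cell cannot be told apart.

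The other 3 probe sets of Cldn3 had the same pattern. Probe set 1426332_a_at read 1.7 to 31.5 on the control arrays and 444.7 and 396.2 on the Satin arrays. Probe set 1451701_x_at read 5.4 to 47.0 on the controls and 1227.8 and 835.6 in Satin. Probe set 1460569_x_at read 4.3 to 50.5 on the controls and 1252.3 and 974.0 in Satin. Groups did not overlap in any of the 4, and within each probe set the lowest Satin signal was 12.6 to 19.3 times the highest control signal as deposited. Of the 16 Cldn3 values on control arrays, 13 were below the median of their array, so the level in control antrum was near the bottom of the measured range. The suffix _x marks probes that may also match other transcripts, whereas _a marks probes shared by transcripts of a single gene. Both kinds showed the difference. All 4 were called in the fit over 15838 probe sets, where 1.02% were called, with differences of 3.05 to 4.07 on the log2 scale, SEs of 0.29 to 0.49 and adjusted p-values of 0.000843 to 0.00539. They read RNA of the same gene on the same arrays and are not independent of each other. Probe sets entered this fit by their mean over all arrays, with the filter level at 5.74. The control means of 1426332_a_at (5.41) and 1451701_x_at (5.67) lay below that level, so both entered through their Satin arrays. With no filter, their adjusted p-values in limma were 0.00792 and 0.00437.

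Against each control strain singly, Cldn3 was 3.93 ± 0.56 (SE) higher in Satin than in BL6, with an adjusted p of 0.0173 where 0.745% of genes were called. It was 4.22 ± 0.56 higher in Satin than in Beige, with an adjusted p of 0.0118 where 0.883% of genes were called. These comparisons share the Satin arrays. The 95% interval of the rise against both controls was 2.98 to 5.16. The call on the gene did not hold under every setting: the adjusted p was 0.0617 without Beige replicate 1 and 0.0966 with robust moderation of the variances. Against BL6 singly the call was lost without either Beige array or without Satin replicate 1 and in other settings (adjusted p up to 0.172), and against Beige singly without either Beige array, with no intensity trend and with robust moderation (adjusted p up to 0.278). Of the 4 probe sets, the 3 other than 1434651_a_at stayed below 0.05 in each of the 16 other settings run.

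**Figure D2:**
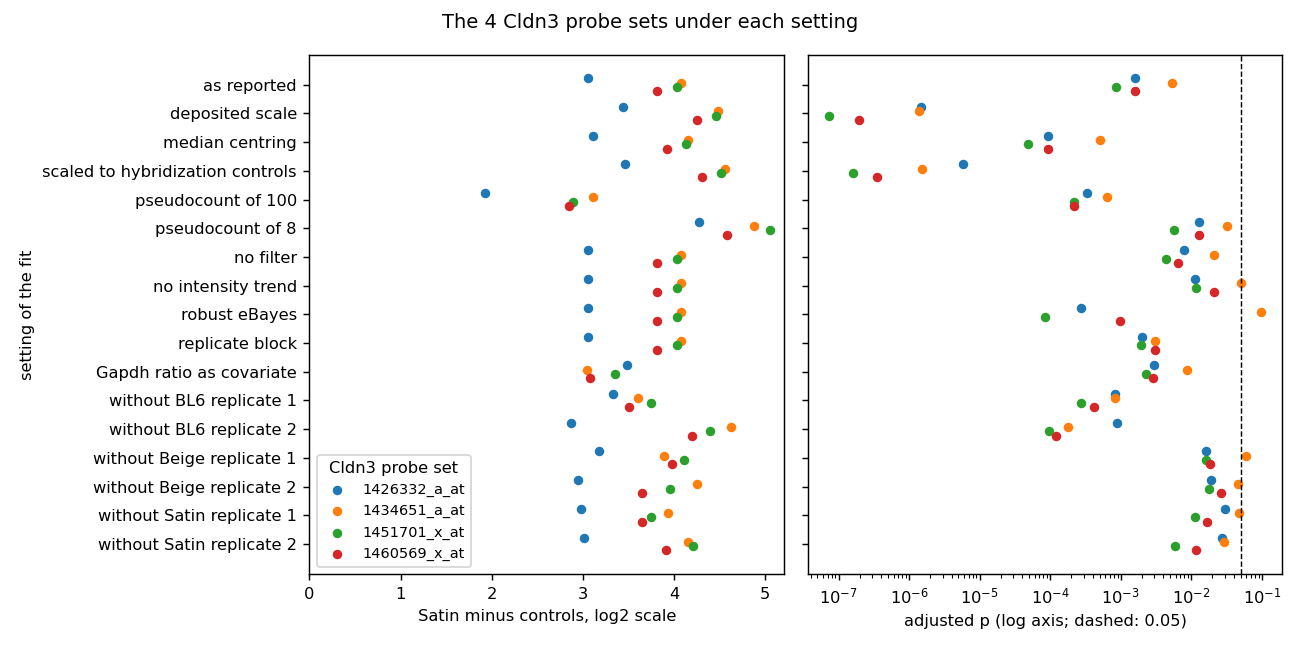
The difference of Satin from the mean of BL6 and Beige (left, log2 scale) and its adjusted p (right, log axis, with a dashed line at 0.05) for each of the 4 Cldn3 probe sets, under the reported setting and 16 others. Differences keep their direction at every setting shown, and 1434651_a_at is the probe set with adjusted p-values past 0.05.

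Cldn3 and Cldn4 are neighbours on mouse chromosome 5, and no other protein-coding gene lies between them in the reference table. The 250 bases before the start of each gene are printed because this pair was the furthest from the controls among the claudins, and Cldn2 is added as a channel-forming claudin that was not. Sequences are from RefSeq on build GRCm38.p6, written 5′ to 3′ on the strand of the gene. Capitals mark matches on either strand to a GC box (GGGCGG, whose reverse complement is CCGCCC), to the forkhead core TGTTTA or to the TATA box TATAAA.
Cldn3, chr5:134985964-134986213 (+): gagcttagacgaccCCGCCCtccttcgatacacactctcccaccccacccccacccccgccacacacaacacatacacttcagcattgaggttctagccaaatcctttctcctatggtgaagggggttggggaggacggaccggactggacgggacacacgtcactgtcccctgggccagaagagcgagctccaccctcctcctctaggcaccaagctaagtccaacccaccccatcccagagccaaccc
Cldn4, chr5:134946935-134947184 (-): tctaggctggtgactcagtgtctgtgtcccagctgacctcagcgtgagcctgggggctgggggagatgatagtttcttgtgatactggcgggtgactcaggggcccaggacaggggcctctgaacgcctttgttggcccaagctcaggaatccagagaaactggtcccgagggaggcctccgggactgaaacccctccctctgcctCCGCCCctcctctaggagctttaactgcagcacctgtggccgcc
Cldn2, chrX:139800558-139800807 (+): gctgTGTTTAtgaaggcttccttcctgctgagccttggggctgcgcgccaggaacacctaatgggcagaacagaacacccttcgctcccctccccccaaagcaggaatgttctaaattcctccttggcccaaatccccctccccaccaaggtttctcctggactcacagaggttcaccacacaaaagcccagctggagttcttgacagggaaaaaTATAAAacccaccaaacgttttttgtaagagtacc
The Cldn3 and Cldn4 windows each held 1 GC box, at 236 and 44 bases before the start, and neither held the forkhead core or the TATA box. The Cldn2 window held a forkhead core at 246 bases and a TATA box at 35 bases before the start. Over 32851 mouse promoter windows of the same length, 32.7% held a GC box, 12% the forkhead core and 12.4% the TATA box. Windows of all 10 members were searched, 15 in all, and the Cldn2 window was the only one with a forkhead core or a TATA box. GC content was 60.8% for Cldn3, 62.0% for Cldn4 and 52.0% for Cldn2, with a median of 52.4% over all windows. A match is a run of letters and was not tested for binding.

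The other genes beside this pair gave values near the controls. Mettl27 differed by -0.05 (adjusted p = 0.971) in Satin against the controls, and Stx1a, which encodes a syntaxin of membrane fusion, by -0.03 (adjusted p = 0.982). Bud23 differed by 0.35 (adjusted p = 0.601). Cldn13 lay below the filter, with signals of 5.6 to 17.2 over all arrays, and Abhd11 and Tmem270 were not analysed here.

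CLDN4 is a sealing claudin often found with CLDN3 in epithelia. Its signals were 100.3 and 109.4 in Satin, 40.3 and 6.7 for the BL6 controls and 29.2 and 6.4 for the Beige controls. Both Satin arrays were above all 4 control arrays, and the control arrays varied widely at low signal. The control mean on the normalized log2 scale was 5.70, below the filter level of 5.74, so Cldn4 was tested only through its Satin arrays. The difference against both controls was 1.13 ± 0.35 (SE; adjusted p = 0.192) on the log2 scale. The interval of 0.35 to 1.91 lies above 0, but the unadjusted p of 0.00954 did not survive adjustment over all genes. Against the single strains the difference was 1.03 over BL6 (adjusted p = 0.340) and 1.22 over Beige (adjusted p = 0.277).

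For Cldn18, probe set 1449428_at read 3626.3 and 3501.4 in Satin, compared with 1740.4 and 1954.3 for BL6 and 1930.4 and 2433.9 for Beige. Satin lay above all controls here too, and the arrays of each strain lay close together after normalisation, at 11.58 ± 0.06 (SD, n = 2) for Satin, 11.15 ± 0.03 for BL6 and 11.11 ± 0.03 for Beige. The difference was 0.45 ± 0.13 (SE; adjusted p = 0.145), with an interval of 0.16 to 0.73. The second probe set, 1425445_a_at, read 391.4 on BL6 array 1 and 1323.3 to 1463.1 on the other 3 control arrays, with 1767.6 and 1893.1 in Satin. After normalisation its Satin values of 10.49 and 10.62 lay within the controls, at 9.08 to 10.71. The difference by that probe set was 0.40 ± 0.36 (SE; adjusted p = 0.745). The low value fell on the array with the low 5′ to 3′ Gapdh ratio. Without that array the difference was 0.0014 (adjusted p = 0.999), and with the Gapdh ratio as a covariate it was -0.40 (adjusted p = 0.514), so this probe set gave no stable direction.

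Of the 9 claudins, 3 (Cldn3, Cldn4 and Cldn18) had both Satin arrays above all controls, where 11% of all genes tested did, and 0 had both below, where 12.7% of all genes did. With so few members, these counts describe the family and are no test of it. These same 3 were the members with an unadjusted p under 0.05, which 1180 of all genes tested also had. The filter, at 5.74, used the mean over all arrays. The control means of Cldn4 (5.70) and Cldn1 (5.65) lay below it, so both were tested through their Satin arrays. That selection leans towards a rise in Satin. Cldn10 was the reverse, with a Satin mean of 5.16 and a control mean of 6.08. The difference from the controls was above 0 for 8 members and below 0 for 1, with a median of 0.34, where that of all genes tested was -0.000577. These values depend on the scaling of the arrays: on the deposited scale, where the median of all genes was 0.43 higher in Satin and 1531 genes were called, 4 members were called (Cldn3, Cldn4, Cldn7 and Cldn18), and the same 4 were called with arrays scaled to the hybridization controls.

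**Figure D3:**
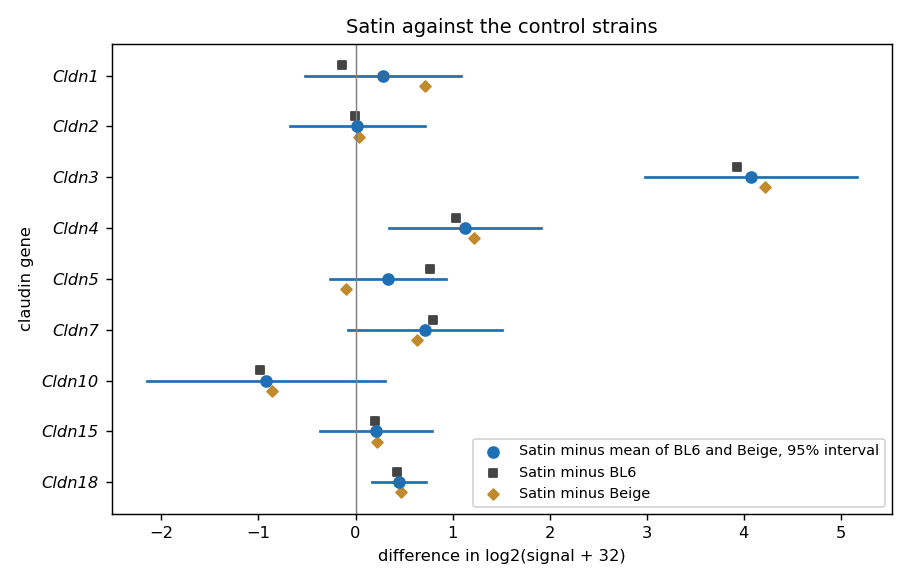
Difference in log2(signal + 32) of Satin from the control strains for the 9 claudin genes, with circles for the difference from the mean of BL6 and Beige and its 95% interval, squares for that from BL6 and diamonds for that from Beige. The circle of Cldn3 lies at 4.07 and that of Cldn10 at -0.92, and those of the other genes lie between 0.02 and 1.13.

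CLDN7 is a claudin found along the sides of epithelial cells as well as at the tight junction. In Satin its signals were 103.5 and 301.7, while BL6 gave 45.5 and 64.5 and Beige gave 70.7 and 76.4. After normalisation Satin array 1, at 6.72, lay among the controls, which ran from 6.35 to 6.87, while Satin array 2 lay above them at 8.10. The difference was 0.72 ± 0.35 (SE; adjusted p = 0.459), so the spread between the Satin arrays was larger than the difference between groups. CLDN1, the claudin of the skin barrier, was near the bottom of the range. Its brightest probe set, 1450014_at, read 27.1 and 47.1 in Satin where BL6 gave 50.6 and 14.4 and Beige 2.2 and 9.2, and the groups overlapped. The difference was 0.29 (adjusted p = 0.820). The other 3 Cldn1 probe sets read 0.8 to 34.8 over all arrays and were the 3 of 17 that lay below the filter, which stands at a signal of about 21.3.

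Of the channel-forming claudins, none was called. CLDN2 forms a channel for cations and water. Its probe set 1417231_at read 257.1 and 573.5 in Satin, with BL6 at 280.0 and 193.5 and Beige at 200.8 and 375.1. The arrays of all strains overlapped, and the Satin arrays differed from each other by 1.19 on the log2 scale. The difference of Satin from the controls was 0.02 (adjusted p = 0.990), and the interval of -0.68 to 0.71 leaves room for a change in either direction. The second Cldn2 probe set, 1417232_at, read 36.1 on Satin array 1 and 169.2 on Satin array 2, with 51.6 to 101.6 on the controls. After normalisation both probe sets were lowest on Satin array 1 and highest on Satin array 2.

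CLDN10 exists in isoforms that pass either cations or anions, and it was the 1 member of the 9 with a lower mean in Satin than in the controls. Its probe set, of the kind whose probes can be shared by more than 1 gene (_s), read 7.8 and 1.9 in Satin, with BL6 at 1.4 and 91.2 and Beige at 47.3 and 17.8. The control arrays covered nearly the whole range, and BL6 array 1 was below both Satin arrays. The difference was -0.92 ± 0.54 (SE; adjusted p = 0.551), with an interval of -2.15 to 0.30. CLDN15 forms a cation channel known from the intestine. It read 87.8 and 46.7 in Satin, with BL6 at 38.8 and 29.0 and Beige at 45.7 and 29.2, and after normalisation its Satin values of 6.56 and 6.22 overlapped the controls at 6.02 to 6.32. The difference was 0.21 (adjusted p = 0.810).

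CLDN5 is the sealing claudin of blood vessel walls. Its signals were 97.5 and 54.0 for Satin, 61.6 and 59.4 for Beige and 10.7 and 21.9 for BL6, so BL6 was the low strain and the other strains overlapped. Beige lay 0.86 ± 0.31 (SE) above BL6 with an unadjusted p of 0.0202 and an adjusted p of 0.865 in limma. Satin lay 0.34 ± 0.27 above the mean of the controls (adjusted p = 0.680). The endothelial marker list had 0 of 11 tested genes called, with summed signals of 738.4 to 847.6 on the controls and 667.6 and 742.9 in Satin. Of these 11, 4 lay above 0 and 7 below in Satin against the controls, with a median of -0.08 and a range from -0.51 for the receptor gene Tek to 0.63 for the adhesion molecule gene Pecam1. Their part in the Cldn5 values was not tested.

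Between the control strains, limma called 0 of the 9 claudins and 0 of all 9395 genes (0%). At an unadjusted p under 0.05 there was 1 claudin, Cldn5, and 483 genes in all. The arrays of Beige and BL6 did not overlap for 3 claudins, Cldn1, Cldn5 and Cldn18, where 31.6% of all genes did not. Of these, Cldn5 was higher in Beige and the others were higher in BL6. For Cldn18 the gap was slight, with the lower BL6 array at 11.133 and the higher Beige array at 11.130. Its difference was -0.04 (adjusted p = 0.974 in limma). The second Cldn18 probe set differed by 0.61 in Beige against BL6 (adjusted p = 0.859), with overlapping arrays. The median difference of the claudins was -0.04, and 2 members lay above 0 and 7 below.

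A further 11 genes of the claudin and claudin domain family had a probe set, of which 5 passed the filter: Cldn6, Cldn8, Cldn9, Cldn23 and Cldnd1. None was called. The smallest p-values were those of Cldn23 and Cldn9, which differed by -0.79 (adjusted p = 0.281) and -0.81 (adjusted p = 0.287) in Satin. These 2 had both Satin arrays below all controls, where 12.7% of all genes tested did. Of the 5 genes, 2 lay above 0 and 3 below, with a median of -0.07. Cldn23 read 52.3 to 82.0 on the controls and 22.4 and 48.8 in Satin, and Cldn9 read 21.9 to 51.8 on the controls and 13.3 and 13.0 in Satin.

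The rest of the junction was followed through 120 listed genes, chosen with earlier results of these data known. They include the strands' other membrane proteins, the scaffolds that tie claudins to actin, the adherens junctions and desmosomes that hold cells together, and proteins that bind or regulate claudins. Of these, 99 had a probe set and 85 passed the filter. In Satin against the controls 1 rose and 0 fell, where 1.44% of all genes were called. The differences split into 40 above 0 and 45 below, with a median of -0.03.

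The gene that rose was Ocln, which encodes occludin, a tight junction membrane protein that is no claudin. Its single probe set read 711.5 and 652.0 in Satin, against 203.8 and 156.9 for BL6 and 217.2 and 382.3 for Beige. Both Satin arrays were above all controls. The difference was 0.93 ± 0.17 (SE; adjusted p = 0.0329). It lost its call with any Satin or Beige array left out (adjusted p = 0.0852 to 0.298), with the replicate number as a block (0.052) and in other settings listed in the closing section. Against BL6 the adjusted p was 0.041, and against Beige it was 0.162.

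The other junction lists held no call. Among 26 tested scaffold and polarity genes the smallest p-values were those of Pard3b (-0.91; adjusted p = 0.323), a polarity protein, and Mpdz (-0.58; adjusted p = 0.467), a scaffold with many PDZ domains. In the 10 adherens junction genes they were Nectin2 (-0.57; adjusted p = 0.160) and Ctnnd1 (0.94; adjusted p = 0.173), which encodes p120 catenin. In the 9 desmosome genes they were the cadherins Dsc2 (-0.61; adjusted p = 0.120) and Dsg2 (-0.53; adjusted p = 0.121). Among 21 claudin partners and regulators they were Epcam, which binds claudins (0.70; adjusted p = 0.087), and Wnk4, a kinase (1.04; adjusted p = 0.263).

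**Figure D4:**
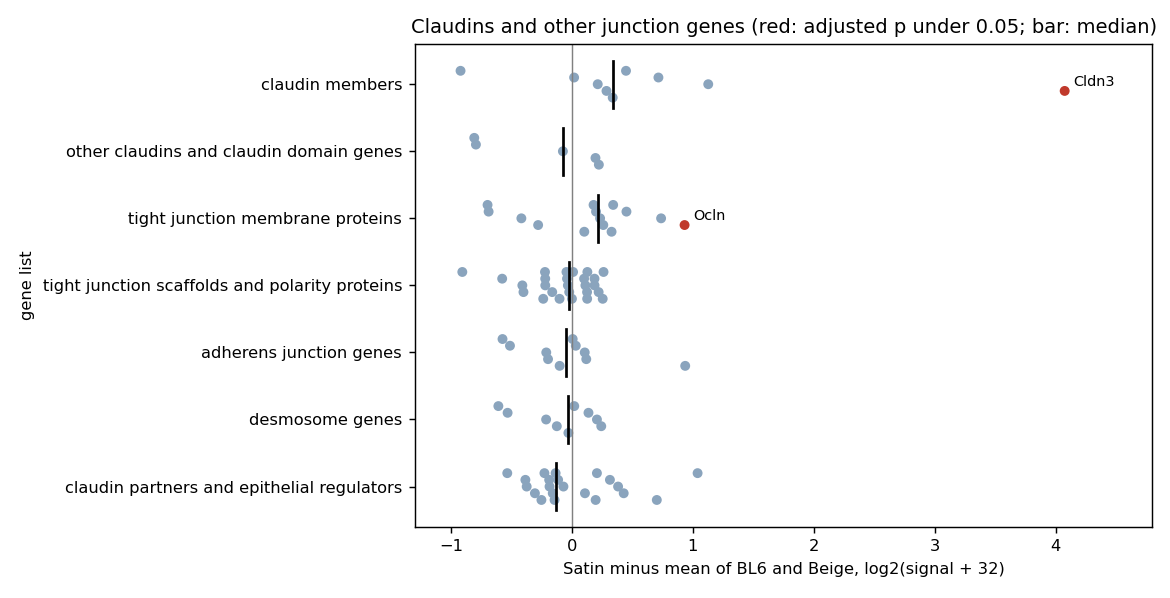
Difference of Satin from the mean of BL6 and Beige, on the log2(signal + 32) scale, for the claudins and the genes of the 6 junction lists, 1 point per gene with a bar at the median. Points in red had an adjusted p under 0.05: Cldn3 at 4.07 and Ocln at 0.93.

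The genes whose pattern over the 6 arrays was nearest to Cldn3, by root mean square distance of normalized log2 values with each gene's mean removed, were Cap1, Igha, Pga5, Bpifb1 and Jchain. Distances were 0.86 for Cap1, 0.90 for Igha, 0.94 for Pga5, 0.98 for Bpifb1 and 1.10 for Jchain. Correlations with Cldn3 over the 6 arrays were 0.89 to 0.92, with 4 low and 2 high arrays, and the arrays are the same for all genes. Igha and Jchain encode parts of secreted immunoglobulins, Pga5 encodes a pepsinogen, and Bpifb1 is a secreted protein of mucous cells.

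Markers of other cell types moved between the strains as well, and their part in the Cldn3 result was not tested. In the immune list, Igha rose by 3.34 (adjusted p = 0.00142) and Jchain by 2.00 (adjusted p = 0.0263). The list thus had 2 of 10 tested genes called higher in Satin, where 0.436% of all genes tested were. Its summed signals were 2014.9 to 2487.4 on the controls and 4132.2 and 5014.0 in Satin. This list did not move as one either: 6 of the 10 lay above 0 and 4 below. The intestinal epithelium list had 17 genes on the array, of which 4 lay below the filter. Of the 13 tested, 2 were called lower in Satin, where 1% of all genes tested were. Fabp2 fell by 4.62 and Rbp2 by 1.16 on the log2 scale. The summed signal of the list was 6406.8 to 7791.8 on the controls and 3415.3 and 4022.5 in Satin. Fabp2, with a mean log2 level of 11.09 in the controls and 6.47 in Satin, weighs heavily in this sum. The list did not move as one: 9 of the 13 lay below 0 and 4 above, among them Apoa4 (0.84; adjusted p = 0.509), Fabp1 (0.76; adjusted p = 0.567) and Apob (0.60; adjusted p = 0.305). The antral gland mucous cell list had all 6 genes above 0, with a median of 0.16. Of these, 1 was called higher, Bpifb1 by 4.37 (adjusted p = 0.00229), where 0.436% of all genes tested were. Those other than Bpifb1 differed by 0.05 to 0.17 and were not called. The parietal cell list had 9 of 9 above 0 with 0 called. The surface mucous (pit) cell list had 1 of 8 genes called lower in Satin, where 1% of all genes tested were. It was the mucin Muc5ac (-4.35; adjusted p = 1.26e-06). Of the 8, 3 lay above 0 and 5 below, with a median of -0.10. The smooth muscle list had 4 of 12 genes called lower in Satin, where 1% of all genes tested were. All 12 lay below 0, with a median of -0.87. In the enteroendocrine list 3 of 11 genes were called lower, against the same 1% of all genes tested. All 11 lay below 0, with a median of -0.60. The glandular epithelium list had 0 of 10 called. Its summed signal was 24661.9 to 27860.0 on the controls and 23988.4 and 25360.2 in Satin.

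Pancreatic acinar markers varied between arrays of a strain, from 14638.2 on BL6 array 1 to 107317 on BL6 array 2, and were 11664.6 and 56611.3 on the Satin arrays. Among the controls, Cldn10 and 3 of the 4 Cldn3 probe sets were highest on BL6 array 2, while Cldn3 probe set 1426332_a_at read 31.5 on BL6 array 1 and 2.7 on BL6 array 2. On the Satin arrays Cldn3 was 10.29 on array 1 and 10.06 on array 2 on the normalized log2 scale. The part of these markers in the claudin values was not tested. None of the 14 pancreatic genes was called in Satin against the controls.

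**Figure D5:**
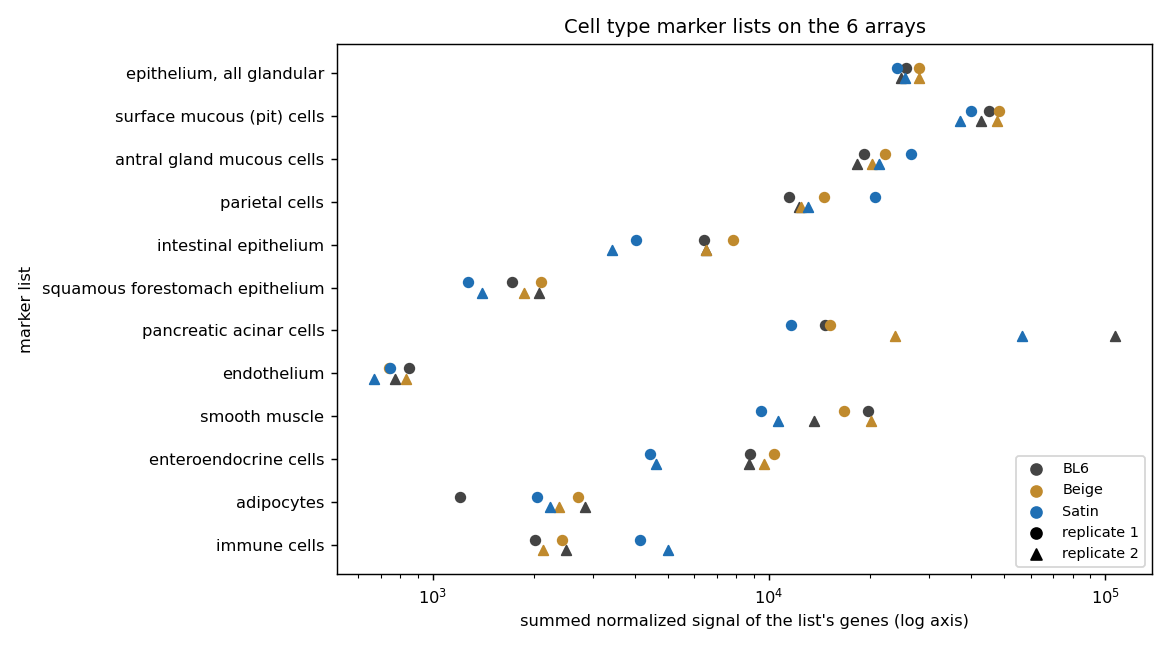
Summed normalized signal of each of 12 marker lists (log axis) on the 6 arrays, coloured by strain, with circles for replicate 1 and triangles for replicate 2. Intestinal, squamous, smooth muscle, enteroendocrine and pit cell sums are lower and immune sums higher on both Satin arrays than on all controls. Bright genes weigh most in a sum. In the pit cell list Muc5ac had a mean log2 level of 12.91 in the controls and 8.57 in Satin. In the intestinal list that of Fabp2 was 11.09 in the controls and 6.47 in Satin. The squamous list had 0 of 9 tested genes called, with 3 above 0 and 6 below. Its mean log2 level was 6.42 and 6.51 in Satin, within the controls at 6.12 to 6.71. The pancreatic sum ranges from 11664.6 to 107317 over the arrays.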

How the data were processed

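Per the labels, Trizol was used to extract antral RNA, and cRNA carrying biotin was hybridised to 6 Affymetrix arrays. The authors deposited a linear signal intensity for each probe set. The sources used here do not give the signal algorithm, any scaling or detection calls. Of the sample columns, 0 were unused.

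From 22690 probe sets, 64 controls were left out. Signals were turned to log2(signal + 32) and quantile normalized. This scale understates changes of dim genes. Of 22626 probe sets, 20380 had a single symbol in the platform annotation, 691 several and 1555 none listed, and 20351 were found in a GRCm38.p6 gene table. The probe set with the highest mean stood for a gene. Genes whose probe set lay in the lowest 30% of the means of all probe sets (below 5.74) were left out, which left 9395 genes. Differences were tested with strain as the only factor on all 6 arrays, in limma 3.58.1 under R 4.3.3 (lmFit, eBayes with trend, two-sided), with 3 residual degrees of freedom and 9.24 after moderation. Calls are at 0.05 after Benjamini-Hochberg adjustment over all tested genes. A second fit took 15838 probe sets one by one. Fits were tested on simulated data.

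The members, the 18 gene lists (264 genes, 229 on the array and 204 tested) and the tests were chosen with earlier results of these data known. Genes named besides the members are, per junction list, the called ones or the 2 with the smallest p, the 5 genes nearest to Cldn3 in pattern, its neighbours and those of Cldn4, Foxq1, Lyst, and marker genes beside a result. Muc5ac, Fabp1, Apoa4 and Apob were named after their values were seen.

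Replicate numbers were tried as a block. Deviations from the strain means of same-numbered arrays correlated at 0.12, 0.27 and 0.19 for the pairs of strains, while the labels do not say that a number marks a shared batch. Neither do they give dates or batches. Other settings are given in the closing section.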

Additional observations from a re-analysis of the deposited data

How the results depend on the processing

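Over 36 claudin differences (9 genes in 4 comparisons), 608 values were recomputed under other settings, not counting fits of only the 4 arrays compared. Of these, 580 kept their call, 14 lost one and 14 gained one. No called value changed sign, while 43 differences that were not called did. Cldn3 in Satin against both controls ranged from 3.05 to 4.87 (adjusted p = 3.55e-08 to 0.0966). The counts moved with scaling. On the deposited scale and with arrays scaled to hybridization controls, the median of all genes was 0.43 and 0.47 higher in Satin (0.10 with median centring), and claudin calls were 4 and 4 in Satin against both controls and 5 and 5 against BL6. Calls over all genes in Satin against both controls were then 1531 (1469 higher, 62 lower) and 2271 (2210 higher, 61 lower), and 92 (46 higher, 46 lower) with median centring, against 135 (41 higher, 94 lower) as reported. Against BL6 they were 1875 (1834 higher, 41 lower) and 3023 (2985 higher, 38 lower), and 45 (24 higher, 21 lower) with median centring, against 70 (21 higher, 49 lower). Against Beige they were 191 (151 higher, 40 lower) and 176 (143 higher, 33 lower), and 52 (20 higher, 32 lower) with median centring, against 83 (21 higher, 62 lower). Beige against BL6 gave 3 and 4, and 6 with the Gapdh ratio as a covariate, against 0. Calls in the junction lists were 16 and 27, and 0 with median centring, and member probe sets called were 7 and 8 against 4. Calls over all probe sets were not counted at these scalings, so the member probe sets have no share to be set against.

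The Cldn3 call was lost (count 0) against both controls with robust moderation, against BL6 with a pseudocount of 8, no filter, no intensity trend, robust moderation, the Gapdh covariate or only the 4 arrays compared, and against Beige with no trend or robust moderation. All genes called were, against both controls, 36 with no trend, 225 robust and 60 with the Gapdh covariate. Against BL6 they were 33 with no filter, 22 with the mean of probe sets, 12 with no trend, 119 robust, 28 with the Gapdh covariate and 20 with only the 4 arrays. Against Beige they were 49 with no filter, 37 with the mean of probe sets, 18 with no trend, 128 robust and 136 with only the 4 arrays. The Ocln call was lost (junction lists 0) with no trend (adjusted p = 0.150), median centring (0.0514) and the Gapdh covariate (0.0539). The cause was not tested in these cases.

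With the replicate number as a block, the Ocln call was lost (junction lists 0; adjusted p = 0.052), while Cldn3 kept its call (adjusted p = 0.00193; SE 0.39), and the block changed no other claudin call.

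Leaving out each array in turn gave 0 to 1 claudin calls in each Satin comparison and 0 in Beige against BL6. All genes called ranged from 29 to 293 against both controls, 21 to 221 against BL6, 9 to 147 against Beige and 0 to 9 for Beige against BL6. Junction calls ranged from 0 to 3 and member probe sets called from 3 to 4. Cldn3 lost its call against both controls without Beige replicate 1 (adjusted p = 0.0617), against Beige without either Beige array (up to 0.278), and against BL6 without either Beige array or Satin replicate 1 (0.0868, 0.0845 and 0.0578). A strain left with 1 array is assumed to vary like the others. Low signal limits Cldn1, Cldn4, Cldn10 and Cldn15, and Cldn5 on the BL6 arrays.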
